A study of Mus musculus with 2 samples.

Results

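The 2 cytotoxic lymphocyte types of MC38 tumours, CD8 T cells and natural killer (NK) cells, were compared with each other in the same mice. Members were the cells that the deposited cell table names CD8 or NK and whose barcode held at least 1000 UMIs (unique molecular identifiers, 1 per captured RNA molecule) of mouse genes in the matrix. These were 1638 cells. Of them 4 were left out because their top hashtag belonged to another treatment and 4 because their barcode was repeated. The 1630 cells used were 907 CD8 T cells and 723 NK cells, out of 8716 annotated cells. Every one of them held at least 2000 UMIs.

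The cells came from 1 multiplexed 10x Genomics 3' library of CD45+ cells sorted from tumours of MC38, a mouse colon carcinoma line, grown under the skin of mice whose Fc gamma receptors are human. Each mouse was implanted with 2000000 tumour cells. Treated mice received 2 injections, 3 days apart, of 100 µg of an antibody against mouse GITR with a human IgG1 Fc part, control mice (Untreated in the cell table) received PBS per the labels, and cells were sorted 4 days after treatment. The N297A antibody was an agonist that the cell table calls Fc-null. GA-aFuc was an agonist called Fc enhanced, and the third antibody, GITR/Syn GA-aFuc, was Fc enhanced but no agonist. Every group, the control included, carried the same genotype and tumour. Each hashtag, an antibody barcode put on the cells of a mouse before pooling, was taken as 1 mouse: 1 mouse each of GA-aFuc and GITR/Syn GA-aFuc, 2 of N297A and 2 Untreated. The labels state 3 mice per treatment, more than this library holds. Both cell types were present in all 6 mice, so that each comparison pairs 6 CD8 sums with 6 NK sums by mouse. Age and sex of the mice are not stated in the labels.

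CD8 T cells and NK cells both kill target cells by releasing perforin and granzymes. They find those targets in different ways. A CD8 T cell reads a peptide on a major histocompatibility molecule with its rearranged T cell receptor, whose signal passes through the CD3 chains, Zap70 and Lat. An NK cell has no such receptor and weighs signals of germline-encoded activating and inhibitory receptors, many of which signal through the adaptors DAP12 and the Fc receptor gamma chain.

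In each mouse there were between 82 and 221 CD8 T cells and between 74 and 166 NK cells. Summed over the cells of a mouse and type, the UMIs came to between 815544 and 2080763. Median UMIs per cell were 8202.0 ± 479 in CD8 T cells and 8130.8 ± 2067.1 in NK cells (mean ± SD over 6 mice), and CD8 T cells were the deeper type in 4 of the 6 mice (mean difference 71.2, two-sided exact sign-flip test, p = 0.969). The median number of genes per cell differed by 38.7 (two-sided exact sign-flip test, p = 0.75), where 6 pairs cannot give a p below 0.0312. The small mean difference came from mice with opposite differences, so depth is not shown to be alike between the types. CD8 minus NK was 1400.4 UMIs on average in the 4 Untreated and N297A mice. In the 2 mice given an Fc-enhanced antibody it was -2587.2 UMIs. Depth also differed among the NK cells of different mice. NK cells of the GA-aFuc mouse had a median of 11262 UMIs and those of the GITR/Syn GA-aFuc mouse 10212, against 6426 to 7320.5 in the other 4 mice, while CD8 T cells ranged from 7529 to 8770.5 without such a step. Levels below are counts per 1000000 UMIs (CPM) of a sum, which removes total depth.

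How the deposited names were made is not stated in the labels or files, and they may have been drawn from the same expression values. The p-values below therefore measure how well a difference repeats over mice, with cells already sorted into types by name. The receptors that define the types serve as a check of the names and are not results. Of the 14 genes of the T cell receptor complex and its coreceptors, all were tested and 13 were higher in CD8 T cells. Cd8a ranged from 642 to 719 CPM (median 681) in the CD8 sums and from 0 to 3.92 CPM (median 1.99) in the NK sums. Cd3d, a CD3 chain, lay between 1117 and 1279 CPM in CD8 T cells and between 12.3 and 70.4 CPM in NK cells. Ncr1, which encodes the NK receptor NKp46, lay between 226 and 268 CPM in NK cells and between 0 and 5.64 CPM in CD8 T cells. Klrb1c, which encodes NK1.1, lay between 232 and 348 CPM in NK cells and between 2.79 and 16 CPM in CD8 T cells. The 4 markers thus separated the types in every mouse, as the names say. RNA free in the droplets, read from barcodes with 20 to 100 UMIs, held 129 CPM of Cd3d and 23.8 CPM of Ncr1, which is above the levels in the type that should lack each gene.

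The separation was not complete at the level of single cells. Of the NK cells, 88 (12.17%) held at least 1 UMI of a CD3 chain beside Ncr1, against 10 of the CD8 T cells (1.1%). The part of doublets in this was not tested. Without these cells, 90.8% of the calls between the types that were tested again were kept, and 99.7% of those of at least 2-fold. After every cell was thinned to 2000 UMIs, Cd3d was seen in 89.3% of CD8 T cells, in 3.46% of NK cells and in 0.563% of macrophages, which should lack it. Before thinning these shares were 99.6% in CD8 T cells and 8.02% in NK cells. Ncr1 was seen in 42.0% of NK cells, 0.441% of CD8 T cells and 0.220% of macrophages after thinning. Macrophages were deeper, with a median of 15232.5 UMIs before thinning. Trbc1, a constant segment of the T cell receptor beta chain, was the exception among the 14 receptor complex genes: it ranged from 250 to 783 CPM in CD8 T cells and from 365 to 465 CPM in NK cells, and the groups overlapped (log2 difference 0.24, SE 0.20, adjusted p = 0.437). Without the N297A 2 mouse it passed the test (log2 difference 0.41, adjusted p = 0.00373). It also passed after thinning (log2 difference 0.53, adjusted p = 9.15e-05), though it was then seen in 51% of NK cells and 38.8% of CD8 T cells. Its partner Trbc2 lay between 1104.7 and 1560.8 CPM in CD8 T cells and between 242 and 286 CPM in NK cells, so that NK cells carried beta chain constant transcripts while Trac, the alpha chain constant segment, stayed at 14.2 to 36.7 CPM.

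Markers of other cell types were also read. Macrophage and monocyte genes, 10 of 12 tested, summed to between 979 and 1493.7 CPM in CD8 T cells and between 536 and 1150.2 CPM in NK cells. Of these, 3 were higher in CD8 T cells (Lyz2, C1qa and Ms4a7, of which only Lyz2 kept its call with each mouse left out) and none in NK cells. With the top cell of each gene left out, 6 of 10 were higher in CD8 T cells, and after thinning 1 of 5 was. Without cluster 44 of the CD8 T cells, which had the highest Lyz2 level (672 CPM), none of the 10 passed the threshold. That cluster was left out after the data were seen, so a fall of Lyz2 in the CD8 sums was built in. Of 7 dendritic cell genes only Cd74 and H2-Ab1, which macrophages also carry, were tested, and neither was called. Without the N297A 1 mouse both were higher in CD8 T cells (Cd74 by 1.00 and H2-Ab1 by 0.71 log2 units, adjusted p = 0.00116 and 0.00342). The genes Flt3, Xcr1 and Clec9a had between 1 and 4 UMIs in either type. Siglech had 21 UMIs in CD8 T cells, all in 1 cell, and Cd209a had 7, of which 1 cell held 6. Both had 0 UMIs in NK cells. The 4 neutrophil genes together reached at most 12.7 CPM in a CD8 sum and 3.92 CPM in an NK sum. Among them S100a8 was at 3 UMIs in CD8 T cells and 1 in NK cells, and Csf3r at 30 and 8. Cd4 and Foxp3 together reached at most 15.9 CPM in a CD8 sum and 1.31 CPM in an NK sum. The part of macrophage RNA in these counts and in the results below was not tested.

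The first comparison asked which genes differed between the 2 types in tumours. Of 8695 genes tested with edgeR's quasi-likelihood test and the mouse as a block, 1397 (16.1%) were higher in CD8 T cells and 1475 (17.0%) were higher in NK cells at a Benjamini-Hochberg adjusted p under 0.05. At least 2-fold differences made up 375 (4.31%) and 382 (4.39%) of the genes. The median log2 difference over all genes tested was -0.01. The counts of every gene list below are to be read against the shares of 16.1% and 17.0% of all genes tested. In 837 genes the lowest CD8 sum exceeded the highest NK sum, and in 646 the reverse held. Every log2 difference below is CD8 minus NK, from that fit, and each adjusted p is adjusted over all 8695 genes. Each SE in this text was derived from the F value of its test, which borrows spread from other genes.

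**Figure D1:**
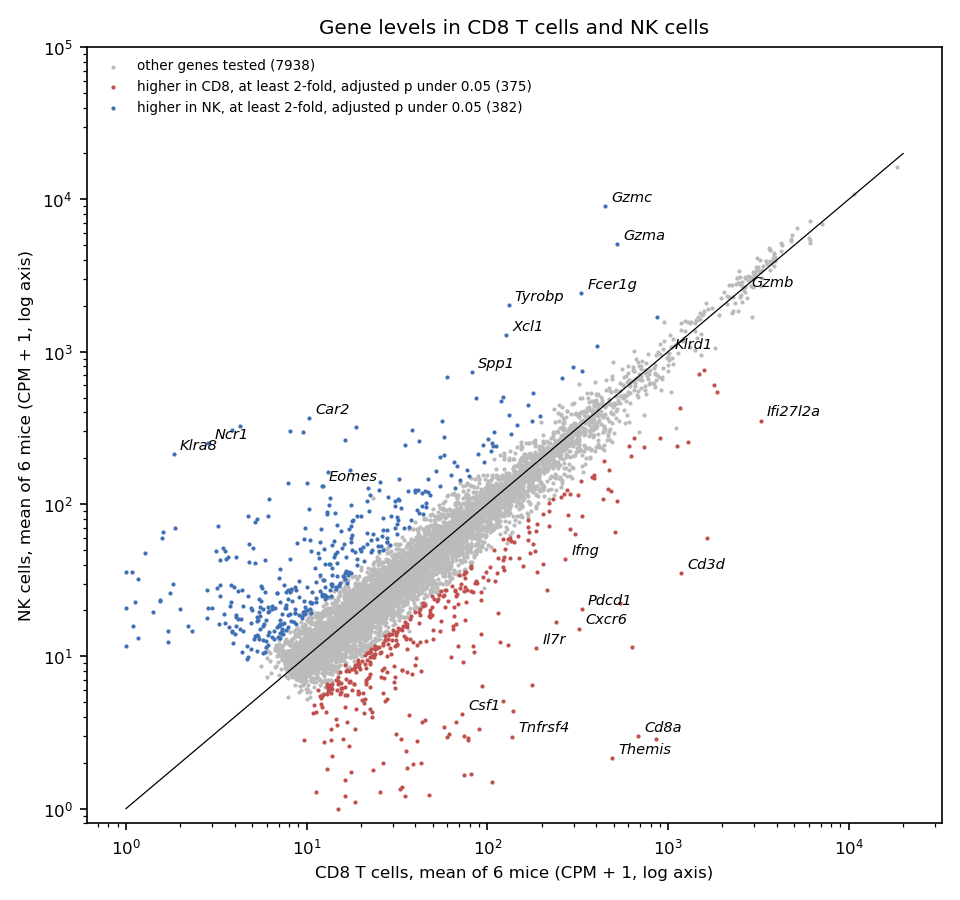
Mean level over 6 mice of each gene tested, in CD8 T cells (horizontal) and NK cells (vertical), as CPM + 1 on log axes, with the line of equal level. The 375 genes in red and the 382 in blue differed at least 2-fold with an adjusted p under 0.05, and Gzmb and Klrd1 lie near the line.

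Beyond the defining receptors, the 20 genes with the largest differences toward CD8 T cells included the following, named for their known roles. Themis, a signalling protein of the T cell receptor pathway, ranged from 372 to 603 CPM in CD8 T cells and from 0 to 4.9 CPM in NK cells (log2 difference 8.80, SE 0.30, adjusted p = 1.07e-08). Cd5, an inhibitory coreceptor of T cells, was 6.94 log2 units higher, Tnfrsf4, which encodes the costimulatory receptor OX40, 5.96, and Cd6, a cell adhesion receptor, 5.34. Bcl11b, a transcription factor required for T cell identity, differed by 4.84 and Irf4, a factor induced by T cell receptor signals, by 4.83. Also among the 20 were Dusp4, a phosphatase of MAP kinases (5.24), Adam19, a metalloproteinase (5.10), Gzmk, a granzyme (4.54), and Klrh1, a C-type lectin of the natural killer gene complex (4.92). In all of these the 6 CD8 sums lay above the 6 NK sums, as the rule that chose the 20 required. Klrh1 was uneven among CD8 T cells: it was seen in 7.06% of them after thinning, and its level was 159 CPM in cluster 16 and 0 CPM in cluster 23.

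The 20 genes on the NK side included receptors of the Ly49 and NKR-P1 families. Klra8, which encodes the activating receptor Ly49H, ranged from 164 to 247 CPM in NK cells and from 0 to 2.82 CPM in CD8 T cells (log2 difference -7.90, SE 0.19, adjusted p = 3.05e-20). Klra4 differed by -6.54 and Klrb1f by -6.61. The last 300 bases of the Klra8 and Klra9 transcripts were 93.8% identical, and those of Klra3 and Klra9 98.7%, so that the counting could split reads between these neighbours and their separate levels are uncertain. Among genes that are no receptors, Car2, which encodes carbonic anhydrase 2, ranged from 329 to 399 CPM in NK cells and from 4.89 to 17.4 CPM in CD8 T cells (log2 difference -5.40, SE 0.13, adjusted p = 1.67e-19). Gas7 (-4.39), the sodium pump subunit Atp1b1 (-4.31), the peptide hormone receptor Glp2r (-4.29), the heparan sulfatase Sulf2 (-4.28) and the vesicle GTPase Rab27b (-4.26) were also among the 20. Clnk, an adaptor related to SLP-76, differed by -4.19.

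Several receptors usually counted as NK receptors did not separate the types. Of 27 genes on that list, which serves as a check of the names, 23 were tested. Of these, 15 were higher in NK cells, 3 were higher in CD8 T cells and 5 were not called. Over all genes tested, 17.0% were higher in NK cells and 16.1% in CD8 T cells, so the 3 are no trait of the list. Klrd1, which encodes CD94, ranged from 880 to 1077.5 CPM in CD8 T cells and from 866 to 1120 CPM in NK cells (log2 difference -0.02, SE 0.06, adjusted p = 0.856). Klrk1, which encodes NKG2D, ranged from 339 to 413 CPM in CD8 T cells and from 357 to 437 CPM in NK cells (log2 difference -0.11, SE 0.06, adjusted p = 0.215). The groups overlapped for both genes, and after thinning Klrd1 was seen in 80.4% of NK cells and 79.1% of CD8 T cells, against 1.27% of macrophages. Klrc1, which encodes the inhibitory partner NKG2A of CD94, was higher in CD8 T cells, where it ranged from 244 to 291 CPM against 110 to 123 CPM in NK cells (log2 difference 1.14, SE 0.07, adjusted p = 2.12e-12).

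**Figure D2:**
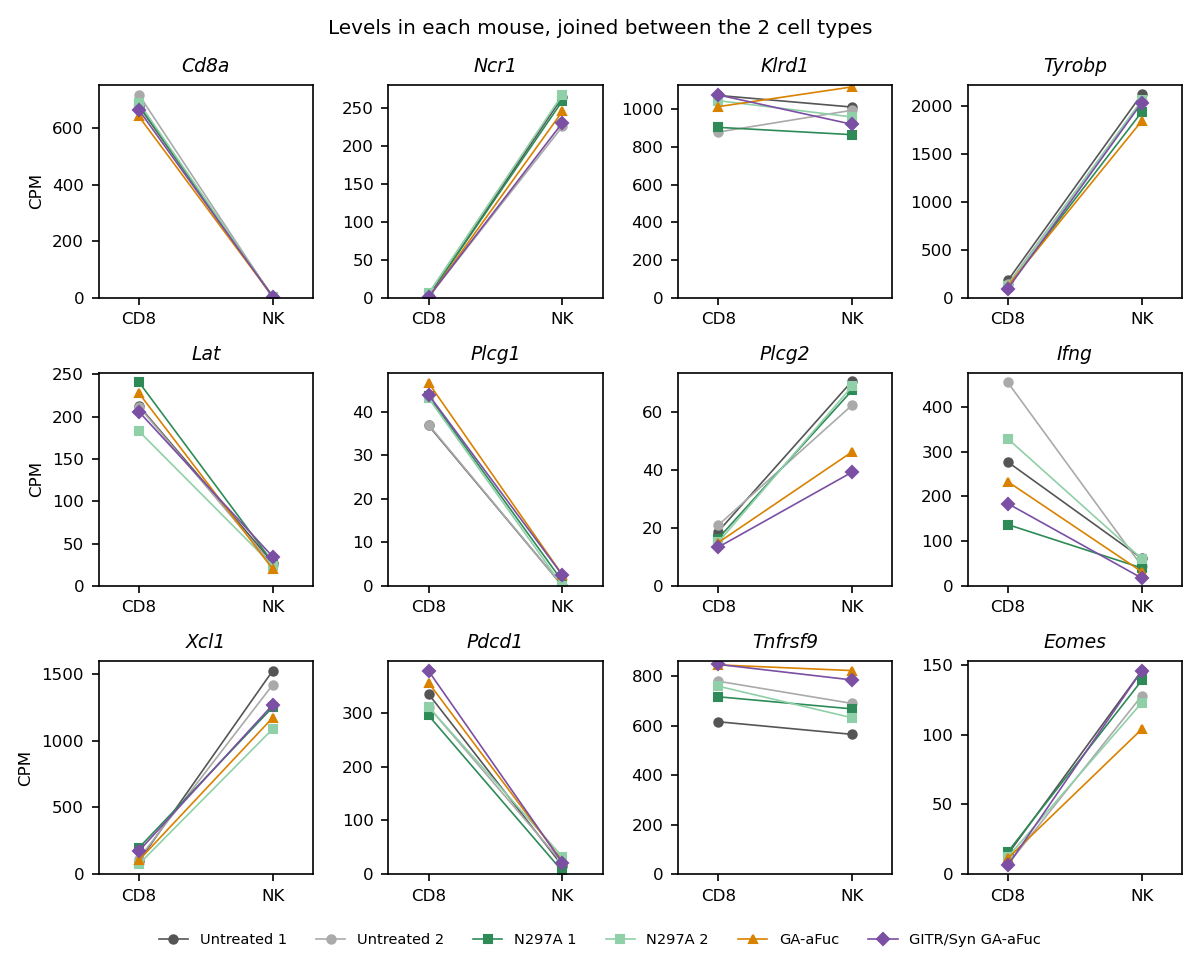
Level of 12 genes in each of the 6 mice, in CPM on linear axes from 0, with a line joining the CD8 sum and the NK sum of a mouse. The lines of Klrd1 and Tnfrsf9 are nearly flat, while those of Lat and Plcg1 fall and those of Tyrobp and Plcg2 rise in all 6 mice.

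The signalling genes below these receptors were split between the types. Among 24 adaptors and proximal kinases tested of 25, 10 were higher in CD8 T cells and 10 in NK cells, with a median log2 difference of 0.03. Tyrobp, which encodes the adaptor DAP12, ranged from 1845 to 2123.7 CPM in NK cells and from 93.6 to 179 CPM in CD8 T cells (log2 difference -4.02, SE 0.09, adjusted p = 8.28e-16). Fcer1g, the Fc receptor gamma chain, ranged from 2129.2 to 2572.3 CPM in NK cells and from 258 to 416 CPM in CD8 T cells (log2 difference -2.93, SE 0.13, adjusted p = 4.05e-07). Macrophages also carry both adaptors, and 96.7% of them held a Tyrobp UMI after thinning, against 96.0% of NK cells and 15.5% of CD8 T cells. For Hcst, which encodes the NKG2D adaptor DAP10, the order was the opposite, with 427 to 629 CPM in CD8 T cells and 319 to 386 CPM in NK cells (log2 difference 0.55).

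Some related members of this list are given side by side. Plcg1, the phospholipase C that acts below the T cell receptor, ranged from 36.9 to 46.7 CPM in CD8 T cells and from 0 to 2.46 CPM in NK cells (log2 difference 5.27, SE 0.33, adjusted p = 3.48e-12). Plcg2, its relative, ranged from 13.3 to 20.9 CPM in CD8 T cells and from 39.2 to 70.6 CPM in NK cells (log2 difference -1.89, SE 0.14, adjusted p = 4.55e-11). The lowest NK values of Plcg2, 46.2 and 39.2 CPM, were those of the GA-aFuc and the GITR/Syn GA-aFuc mouse. Lat, the scaffold of T cell receptor signalling, was higher in CD8 T cells by 3.01 log2 units, and Lat2, the related scaffold of Fc receptor signalling, was higher in NK cells (log2 difference -0.83). Of the tyrosine kinases, Zap70 was 1.11 log2 units higher in CD8 T cells and Syk was higher in NK cells (log2 difference -2.06). Txk, a Tec family kinase, was higher in NK cells (log2 difference -2.57). Sh2d1b1, which encodes the SLAM adaptor EAT-2 of NK cells, lay between 45.5 and 74.5 CPM in NK cells and between 1.41 and 6.58 CPM in CD8 T cells.

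Of 21 granule and death ligand genes tested of 23, 12 were higher in NK cells, against 17.0% of all genes tested. Another 3 were higher in CD8 T cells (Gzmk, Nkg7 and Fasl), against 16.1%, and 6 were not called. The median log2 difference was -0.32. The call of Fasl was lost with DESeq2 (adjusted p = 0.129), after thinning (log2 difference 0.17, adjusted p = 0.446) and without CD8 cluster 23 (adjusted p = 0.072). Prf1, which encodes the pore-forming protein perforin, had a median of 509 CPM in CD8 T cells (highest 639 CPM) and of 832 CPM in NK cells (lowest 736 CPM), without overlap (log2 difference -0.86, SE 0.08, adjusted p = 3.23e-08). Gzmb, the best-known granzyme, ranged from 1548.6 to 3489.6 CPM in CD8 T cells and from 2010 to 2866.6 CPM in NK cells, and the groups overlapped (log2 difference 0.01, SE 0.13, adjusted p = 0.974). Gzma, a tryptase granzyme, ranged from 174 to 977 CPM in CD8 T cells and from 3667.5 to 5968.8 CPM in NK cells (log2 difference -3.45, SE 0.40, adjusted p = 0.00171). Its lowest NK values, 4347.2 and 3667.5 CPM, were those of the GA-aFuc and the GITR/Syn GA-aFuc mouse. Gzmk ran the other way, with 47.5 to 86.5 CPM in CD8 T cells and 0 to 9.19 CPM in NK cells.

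Gzmb shares a gene cluster on chromosome 14 with Gzmc, Gzmf, Gzmn, Gzmg, Gzmd and Gzme, in this order by coordinate from high to low, all on the minus strand. The genes are related copies. The 250 bases before the annotated start are shown for the 4 members on which the comparison turns, from RefSeq on build GRCm38.p6, 5′ to 3′ on the gene's own strand. The deposited counts used GRCm39, so that these positions do not carry over to the files. Capitals mark matches on either strand to the Runx core TGTGGT, the site of a transcription factor family of cytotoxic lymphocytes, and to the AP-1 motif TGANTCA, and no match of one overlapped a match of the other. The windows are Gzmb at chr14:56262335-56262584, Gzmc at chr14:56234658-56234907, Gzmf at chr14:56211408-56211657 and Gzmd at chr14:56132594-56132843.
Gzmb: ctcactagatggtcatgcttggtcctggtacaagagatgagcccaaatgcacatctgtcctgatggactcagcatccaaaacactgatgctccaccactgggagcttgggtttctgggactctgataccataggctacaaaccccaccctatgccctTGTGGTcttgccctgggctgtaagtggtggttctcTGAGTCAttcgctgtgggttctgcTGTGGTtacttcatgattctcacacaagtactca
Gzmc: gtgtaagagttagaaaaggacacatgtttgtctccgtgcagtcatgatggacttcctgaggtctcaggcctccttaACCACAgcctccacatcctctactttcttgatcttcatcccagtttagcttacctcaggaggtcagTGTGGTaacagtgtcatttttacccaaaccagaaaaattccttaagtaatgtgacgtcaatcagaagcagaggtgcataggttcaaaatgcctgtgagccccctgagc
Gzmf: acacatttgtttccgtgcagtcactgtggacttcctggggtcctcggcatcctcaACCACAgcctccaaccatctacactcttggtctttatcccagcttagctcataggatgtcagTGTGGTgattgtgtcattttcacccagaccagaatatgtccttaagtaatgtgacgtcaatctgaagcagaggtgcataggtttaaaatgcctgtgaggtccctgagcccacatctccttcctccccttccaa
Gzmd: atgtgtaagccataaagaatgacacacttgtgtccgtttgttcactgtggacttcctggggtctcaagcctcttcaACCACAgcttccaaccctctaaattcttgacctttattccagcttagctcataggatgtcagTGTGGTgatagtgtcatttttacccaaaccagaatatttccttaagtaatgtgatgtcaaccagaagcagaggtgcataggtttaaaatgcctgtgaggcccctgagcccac

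The Gzmc, Gzmf, Gzmg, Gzmd and Gzme windows each held 2 Runx core matches, 1 on each strand, at -174 and -108 from the start in Gzmc and at -195 and -133 in Gzmf. Gzmb held 2 on its own strand, at -93 and -34, and the 1 AP-1 match of the cluster, at -58. The Gzmn window held neither. Of 32536 annotated promoter windows of this length, 14.0% held a Runx core match and 6.73% an AP-1 match. Over their aligned bases the Gzmf window was 88.8% identical to that of Gzmc and 89.5% to that of Gzmd, and the Gzmb window was 72.0% identical to that of Gzmc. A match is a description of the letters and no factor was measured on this DNA.

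Gzmc ranged from 163 to 782 CPM in CD8 T cells (median 410) and from 5245.5 to 14087.8 CPM in NK cells (median 8754.4), and the groups did not overlap (log2 difference -4.55, SE 0.50, adjusted p = 0.00127). Free RNA held 732 CPM of Gzmc, above the mean of the CD8 sums, and after thinning the gene was seen in 50.9% of NK cells, 18.5% of CD8 T cells and 3.30% of macrophages. Gzmd ranged from 9.27 to 153 CPM in CD8 T cells and from 135 to 2418.5 CPM in NK cells (log2 difference -3.34, SE 0.65, adjusted p = 0.0129). Gzmg (log2 difference -3.24, adjusted p = 0.00984) and Gzme (log2 difference -2.20, adjusted p = 0.0239) were also higher in NK cells. Their groups overlapped. Gzmf, whose window is close to that of Gzmc, had the opposite order of medians, with 286 to 1669.1 CPM in CD8 T cells (median 1178.2) and 7.65 to 1285.6 CPM in NK cells (median 167). It was higher in the CD8 sum of all 6 mice, but its difference varied widely and did not pass the test (log2 difference 2.42, SE 1.02, adjusted p = 0.141). With DESeq2 it did (log2 difference 2.98, adjusted p = 0.00626).

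**Figure D3:**
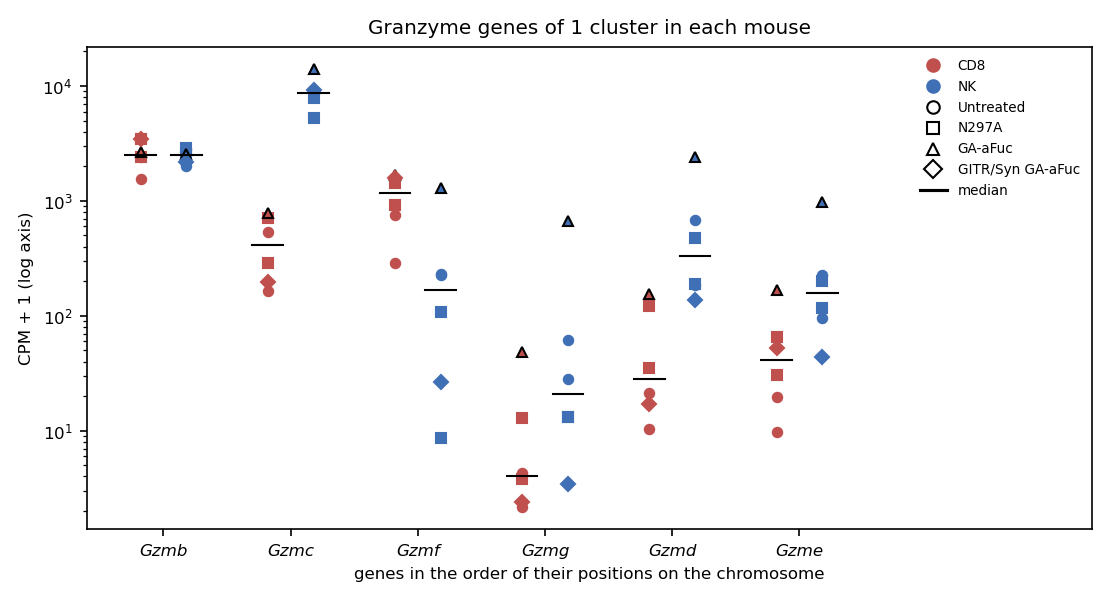
Level of 6 genes of the granzyme cluster in each mouse, in CPM + 1 on a log axis, for CD8 T cells (red) and NK cells (blue), with the median as a bar and the GA-aFuc mouse outlined in black. Gzmc is separate between the types, Gzmb is not, and the GA-aFuc mouse has the highest NK value of Gzmc, Gzmf, Gzmg, Gzmd and Gzme. Gzmn, with 6 UMIs in all CD8 T cells and 2 in NK cells, is not shown.

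The GA-aFuc mouse gave the highest NK sum of 5 of these genes. Without it, the calls of Gzmd (log2 difference -3.05, adjusted p = 0.051) and Gzmg (log2 difference -2.12, adjusted p = 0.0617) were lost, as was that of Gzme (log2 difference -2.01, adjusted p = 0.0931). Gzme was also lost without the Untreated 1, Untreated 2 or N297A 1 mouse (adjusted p = 0.0699, 0.0588 and 0.0715). In the GA-aFuc mouse, cluster 48, the NK cluster with the highest Gzmc level, made up 22.1% of NK cells, against 7.41% to 14.9% in the other 5. Its exact 95% binomial interval (15.4% to 30.2%) overlapped those of Untreated 1, N297A 1 and GITR/Syn GA-aFuc, but not those of Untreated 2 and N297A 2. Such intervals cover the counting error of cells only. They do not measure the spread between mice, and 1 mouse cannot show an effect of its antibody. The part of this share in the granzyme values was not tested. Single cells also weighed on the rarest genes: 1 NK cell held 35.3% of all Gzmg UMIs of NK cells, and 1 CD8 cell held 62.5% of those of CD8 T cells. The last 300 bases of the Gzmd and Gzme transcripts were 95.4% identical and those of Gzmf and Gzmg 91.8%, so reads of these pairs may be split by the counting, while Gzmc and Gzmf shared 70.6%.

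Secreted factors differed in both directions. Of 14 cytokine and chemokine genes tested of 19, 6 were higher in CD8 T cells and 4 in NK cells (Xcl1, Spp1, Tgfb1 and Flt3l), with a median log2 difference of 1.24. After thinning, 4 of 10 tested were higher in CD8 T cells and 3 in NK cells, with a median of 0.11, and Flt3l was not called (log2 difference -0.38, adjusted p = 0.288). Ifng, the main effector cytokine of both types, ranged from 137 to 455 CPM in CD8 T cells and from 17.2 to 61.4 CPM in NK cells (log2 difference 2.56, SE 0.18, adjusted p = 7.95e-06). After thinning it was seen in 8.99% of NK cells and 24.1% of CD8 T cells. Csf1, the growth factor of macrophages, ranged from 62.9 to 92.2 CPM in CD8 T cells and from 2.04 to 4.57 CPM in NK cells (log2 difference 4.32, SE 0.20, adjusted p = 3.59e-15). Ccl3, an inflammatory chemokine, ranged from 94.1 to 722 CPM in CD8 T cells and from 10.1 to 25.8 CPM in NK cells (log2 difference 3.54, SE 0.49, adjusted p = 0.00348), and its highest value was that of the Untreated 2 mouse. Tnf was 1.80 log2 units higher in CD8 T cells.

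Xcl1, the chemokine that attracts cross-presenting dendritic cells, ranged from 1088.1 to 1524.5 CPM in NK cells and from 73.3 to 196 CPM in CD8 T cells (log2 difference -3.44, SE 0.23, adjusted p = 0.000144). It was seen in 53.3% of NK cells and 8.71% of CD8 T cells after thinning. Spp1, which encodes the secreted phosphoprotein osteopontin, ranged from 420 to 1263.4 CPM in NK cells and from 38.5 to 176 CPM in CD8 T cells (log2 difference -3.22, SE 0.42, adjusted p = 0.0026). Ccl5 overlapped between the types, at 1693.9 to 2983.7 CPM in CD8 T cells and 750 to 2869.3 CPM in NK cells (adjusted p = 0.39).

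**Figure D4:**
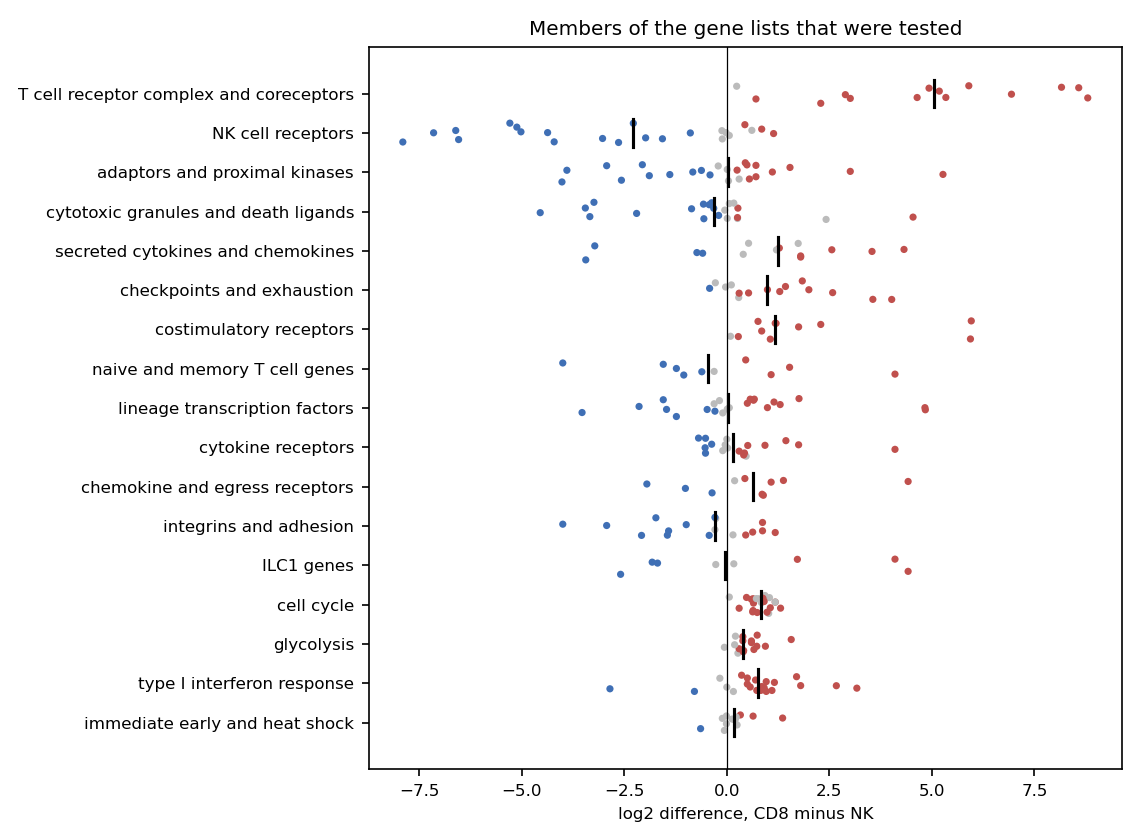
Log2 difference, CD8 minus NK, of each tested member of 17 gene lists, with the list's median as a black bar. Red and blue points passed an adjusted p of 0.05 and grey points did not; of the cell cycle, glycolysis and costimulatory lists no member was called higher in NK cells.

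Of 15 tested genes of the checkpoint and exhaustion list, 10 were higher in CD8 T cells and 1 in NK cells (median log2 difference 0.99, against -0.01 over all genes). Pdcd1, which encodes PD-1, ranged from 296 to 379 CPM in CD8 T cells and from 5.1 to 32.1 CPM in NK cells (log2 difference 4.02, SE 0.20, adjusted p = 4.88e-07). Havcr2, which encodes TIM-3, differed by 3.56, Lag3, a receptor for MHC class II, by 2.58, Rgs16, a regulator of G protein signals, by 2.00, Ctla4, the inhibitory receptor for CD80 and CD86, by 1.84 and Entpd1, which encodes the ectonucleotidase CD39, by 1.29. In each of these the 2 groups did not overlap. The gene in the other direction was Nr4a3, an orphan nuclear receptor induced by antigen receptor signals, with a log2 difference of -0.42 and overlapping groups. Cd160 lay between 40.5 and 54.8 CPM in CD8 T cells and between 21.1 and 66.3 CPM in NK cells (log2 difference -0.03, adjusted p = 0.916).

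Costimulatory receptors had the same direction in 10 of 11 tested genes. Tnfrsf4 ranged from 52.4 to 206 CPM in CD8 T cells and from 1.02 to 3.27 CPM in NK cells. Slamf1, a self-binding receptor of lymphocytes, lay at 21.6 to 46.4 CPM in CD8 T cells and was at 0 to 1.31 CPM in NK cells. Cd28, the classical costimulator, was 1.20 log2 units higher and Cd2, an adhesion receptor, 1.18. The gene that was not called was Tnfrsf9, which encodes 4-1BB: it ranged from 616 to 848 CPM in CD8 T cells and from 565 to 823 CPM in NK cells (log2 difference 0.09, SE 0.06, adjusted p = 0.264). In every mouse its CD8 sum was the higher of the pair. Without CD8 cluster 23 its difference was 0.22 log2 units and passed the threshold (adjusted p = 0.00745).

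Genes of naive and memory T cells were higher in either type. Of 10 tested of 12, 4 were higher in CD8 T cells and 5 in NK cells, with a median log2 difference of -0.46. Tcf7, a transcription factor of stem-like T cells, ranged from 29.1 to 50 CPM in NK cells and from 5.59 to 16.9 CPM in CD8 T cells (log2 difference -1.55). Lef1, its relative, differed by -1.23 and Bach2, a repressor of effector genes, by -1.05. Il7r, the interleukin 7 receptor chain, ran strongly the other way, with 145 to 250 CPM in CD8 T cells and 3.02 to 20.4 CPM in NK cells (log2 difference 4.10, SE 0.34, adjusted p = 0.00019). Ly6c2, a surface protein of effector and memory T cells, was 1.53 log2 units higher in CD8 T cells.

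Transcription factors of the 2 lineages differed in both directions, with 10 of 22 tested higher in CD8 T cells, 7 higher in NK cells and a median log2 difference of 0.03. Eomes, a T-box factor, ranged from 104 to 146 CPM in NK cells and from 6.29 to 15.9 CPM in CD8 T cells (log2 difference -3.53, SE 0.14, adjusted p = 8.03e-16). The related Tbx21, which encodes T-bet, overlapped between the types, at 133 to 252 CPM in CD8 T cells and 186 to 301 CPM in NK cells (log2 difference -0.29, SE 0.07, adjusted p = 0.00308). The call was lost without the mouse as a block (log2 difference -0.27, adjusted p = 0.192). Runx1 was higher in NK cells (log2 difference -2.14), and Runx3, the family member known for CD8 T cell identity, was also higher there, with 718 to 887 CPM against 423 to 717 CPM (log2 difference -0.48, SE 0.07, adjusted p = 1.67e-05). Irf8, an interferon regulatory factor, differed by -1.47. Prdm1, which encodes the effector regulator Blimp-1, was 1.76 log2 units higher in CD8 T cells.

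Of 18 cytokine receptor genes tested of 20, 8 were higher in CD8 T cells and 5 in NK cells. Over all genes tested the shares were 16.1% and 17.0%. For the interleukin 2 receptor, the alpha chain Il2ra ranged from 58 to 99 CPM in CD8 T cells and from 11.5 to 42.2 CPM in NK cells (log2 difference 1.75, SE 0.24, adjusted p = 0.000319). The beta chain Il2rb, which also binds interleukin 15, ranged from 527 to 803 CPM in CD8 T cells and from 959 to 1065.6 CPM in NK cells (log2 difference -0.69, SE 0.07, adjusted p = 6.35e-09), and the common gamma chain Il2rg overlapped between the types (log2 difference -0.10, adjusted p = 0.284). Il21r was 1.44 log2 units higher in CD8 T cells.

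Homing receptors differed in both directions. Of 10 chemokine and egress receptors tested of 13, 6 were higher in CD8 T cells and 3 in NK cells. Cxcr6, a receptor of tissue-resident lymphocytes, ranged from 251 to 348 CPM in CD8 T cells and from 4.59 to 22.9 CPM in NK cells (log2 difference 4.42, SE 0.19, adjusted p = 2.06e-08). Ccr2, the receptor for CCL2, ranged from 172 to 254 CPM in NK cells and from 31.8 to 80 CPM in CD8 T cells (log2 difference -1.95, SE 0.22, adjusted p = 0.000647). Cx3cr1, the fractalkine receptor, was 1.38 log2 units higher in CD8 T cells. Of 17 integrin and adhesion genes tested of 19, 9 were higher in NK cells and 5 in CD8 T cells. Those higher in NK cells included Itga2, which encodes CD49b (-2.93), Itgax, which encodes CD11c (-2.08), Itga4 (-1.73) and Itgb1 (-1.42).

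Cell division genes were higher in CD8 T cells where they differed. Of 23 cell cycle genes tested, 15 were higher in CD8 T cells and none in NK cells (median log2 difference 0.84). Cdk1, the mitotic kinase, ranged from 44 to 68.6 CPM in CD8 T cells and from 11.1 to 38.8 CPM in NK cells (log2 difference 1.06, SE 0.16, adjusted p = 1.24e-05). Top2a, a topoisomerase of dividing cells, ranged from 294 to 395 CPM and from 47.3 to 236 CPM without overlap, but did not pass the test (log2 difference 1.04, SE 0.33, adjusted p = 0.0654). The lowest NK value was that of the Untreated 2 mouse, and without that mouse Top2a was called (log2 difference 0.79, adjusted p = 0.000123). Clusters 38 and 58, which had the highest levels of the mitotic gene Birc5 (450 and 387 CPM), held 139 of the 907 CD8 T cells and 49 of the 723 NK cells, with 1 of 108 NK cells in the Untreated 2 mouse. Without these clusters 8 of 15 genes tested were higher in CD8 T cells, with a median log2 difference of 0.52.

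Of 16 glycolysis genes 12 were higher in CD8 T cells and none in NK cells, with a median log2 difference of 0.41. The largest difference was that of the glucose transporter Slc2a3, at 41.8 to 78 CPM in CD8 T cells and 12.3 to 26.1 CPM in NK cells (log2 difference 1.57, SE 0.15, adjusted p = 7.66e-09). Gapdh, a glycolytic enzyme, ranged from 1511 to 2127.9 CPM in CD8 T cells and from 951 to 1126.1 CPM in NK cells (log2 difference 0.74).

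Type I interferon response genes were higher in CD8 T cells in 18 of 23 cases and higher in NK cells in 2 (median log2 difference 0.76). Ifi27l2a, an interferon-induced gene, ranged from 2626.9 to 4327.7 CPM in CD8 T cells and from 223 to 482 CPM in NK cells (log2 difference 3.17, SE 0.19, adjusted p = 5.35e-05). Ifit3, an RNA-binding antiviral protein, was 1.80 log2 units higher. The 2 genes higher in NK cells were Ifi44 (log2 difference -2.85, with 36.8 to 65.2 CPM in NK cells and 4.7 to 12.7 CPM in CD8 T cells) and Oasl1 (log2 difference -0.79, with overlapping groups). Without CD8 clusters 23 and 44 and NK cluster 48, 13 of 22 genes were higher in CD8 T cells and 3 in NK cells (median 0.44). Without cluster 44 alone the counts stayed at 18 and 2 of 23 (median 0.72). Without cluster 23 alone they were 15 and 2 of 23 (median 0.64). Of 13 immediate early and heat shock genes 12 were tested. Of these, 3 were higher in CD8 T cells (Hspa1a, Atf3 and Jund) and 1 in NK cells (Jun), against 16.1% and 17.0% of all genes tested. Genes of this kind are known to respond to tissue dissociation, and the other 8 were not called. After thinning, 1 of 10 was higher in CD8 T cells and 2 in NK cells, and Jund was not called (log2 difference 0.12, adjusted p = 0.277). Atf3 lost its call without the Untreated 1, N297A 2, GA-aFuc or GITR/Syn GA-aFuc mouse (adjusted p = 0.114, 0.0851, 0.102 and 0.0959).

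Transcripts of the T cell receptor delta and gamma loci and of Ighm also differed. Trdc and Trdv4, a constant and a variable segment of the T cell receptor delta chain, were higher in NK cells. Trdv4 ranged from 24.5 to 39.4 CPM there and from 0 to 0.551 CPM in CD8 T cells (2 UMIs in all CD8 T cells against 232 in NK cells, adjusted p = 3.87e-13). Trgc4 was higher in NK cells as well, while Trgc2 was higher in CD8 T cells (log2 difference 2.71, adjusted p = 0.0123). Without the N297A 2 mouse Trgc2 (adjusted p = 0.0552) and Trdc (adjusted p = 0.0586) were not called, and neither was Trdc without the GITR/Syn GA-aFuc mouse (adjusted p = 0.0746). Ighm, the constant segment of the immunoglobulin mu chain, ranged from 55.1 to 111 CPM in NK cells and from 12.2 to 28.3 CPM in CD8 T cells (log2 difference -2.17, SE 0.17, adjusted p = 2.2e-09), with the other B cell markers near 0. Pecam1, the adhesion molecule CD31, was higher in NK cells (log2 difference -2.40).

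The cell table splits each type into 5 clusters. How these were made is not given, so their levels are descriptions, given as CPM of UMIs summed over the mice, with no test. Among CD8 T cells, clusters 16 (291 cells) and 33 (202 cells) had the highest Pdcd1 levels, 454 and 357 CPM, and cluster 33 had the highest levels of Gzmf (2633.4 CPM), Ifng (394 CPM) and Ccl3 (374 CPM). Cluster 23 (151 cells) held most of the Tcf7 and S1pr1 of the CD8 T cells, at 101 and 96.6 CPM, against at most 8.86 CPM of either gene in the other CD8 clusters. It also had the highest Lef1 (185 CPM), Ccl5 (6323.2 CPM), Gzmk (170 CPM), Ifit3 (380 CPM) and Cxcr3 (118 CPM) of the CD8 clusters, and Klrb1c (59.1 CPM), Ncr1 (12.5 CPM) and Trdc (60.2 CPM), which were at or below 5.08 CPM in the others. Without cluster 23, Cxcr3 no longer differed past the threshold between the types (log2 difference 0.19, adjusted p = 0.619, against 0.89 with it). The cluster was left out after the data were seen and had the most Cxcr3, so a fall was built in. The value describes where the CD8 level lay and is no separate test.

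**Figure D5:**
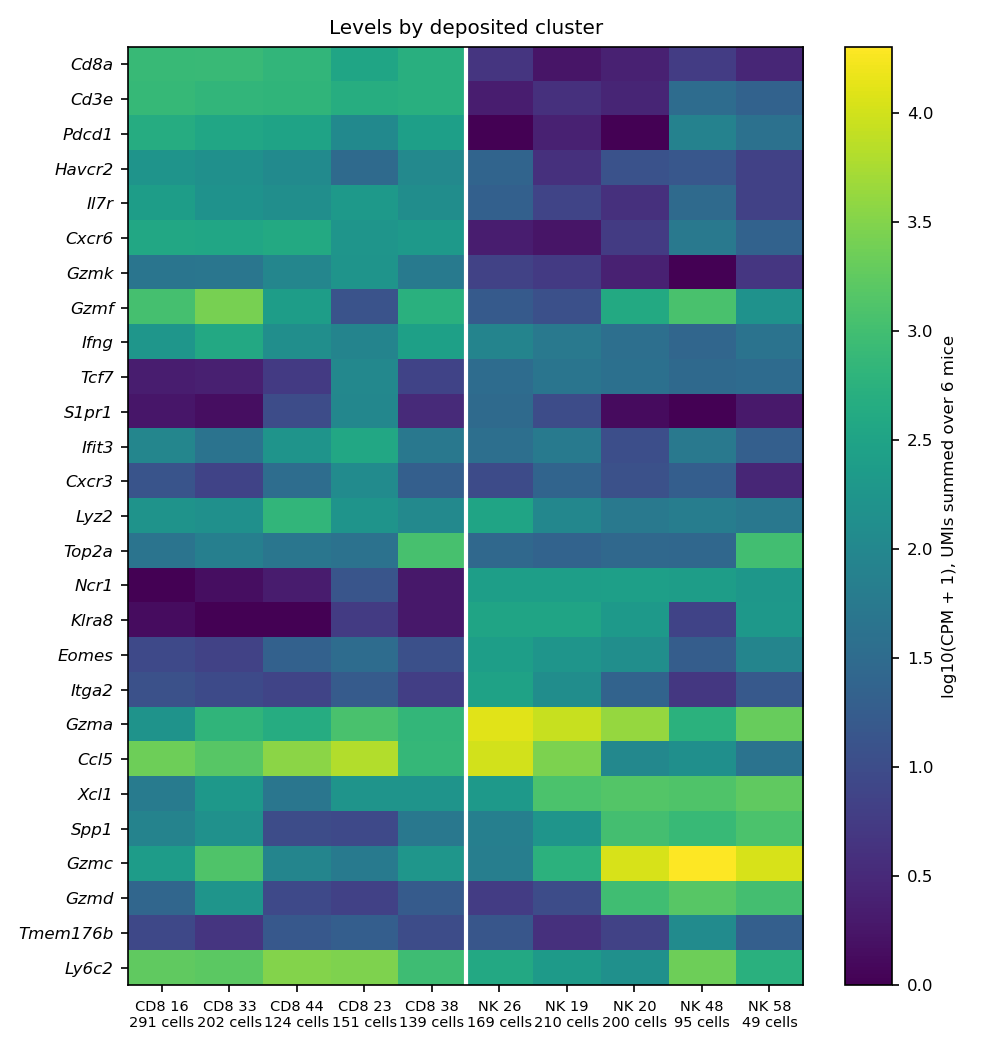
Level of 27 genes in the 5 CD8 and 5 NK clusters of the deposited table, as log10(CPM + 1) of UMIs summed over the 6 mice. Tcf7, S1pr1 and Cxcr3 are brightest among CD8 clusters in cluster 23, and from NK cluster 26 to clusters 20 and 48 Gzma and Ccl5 darken while Gzmc and Gzmd brighten.

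NK clusters were set apart by their granzymes and chemokines. In cluster 26 (169 cells, median 4293 UMIs per cell) Gzma stood at 12783.5 CPM, Ccl5 at 10407.3 CPM and Gzmc at 68.1 CPM. In cluster 20 (200 cells, median 13251 UMIs per cell) Gzma stood at 4160.9 CPM, Ccl5 at 103 CPM and Gzmc at 11006.6 CPM. Cluster 19 lay between them, with 8898.7 CPM of Gzma, 2835.9 CPM of Ccl5 and 571 CPM of Gzmc. In clusters 26, 19 and 20, Itga2 stood at 305, 127 and 22.8 CPM and Spp1 at 71.7, 176 and 1037.7 CPM. The clusters with high Gzmc were also the deeper ones.

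NK cluster 48 (95 cells) had an Ncr1 level like the other NK clusters and little of several other NK genes. Its Ncr1 level was 247 CPM, within the 188 to 271 CPM of the other NK clusters, but Klra8 was at 6.36 CPM against 198 to 331 CPM and Eomes at 17.5 CPM against 90.4 to 258 CPM. It had the highest Gzmc (20129.6 CPM), Tmem176b (119 CPM), Ly6c2 (2222.5 CPM), Cxcr6 (54.1 CPM) and Pdcd1 (81.1 CPM) of the NK clusters. Without it, Tmem176b no longer differed past the threshold between the types (log2 difference -0.04, adjusted p = 0.945, against -1.69 with it). Here too a fall was built in, since the cluster was left out after the data were seen and had the most Tmem176b. A list of genes of type 1 innate lymphoid cells, relatives of NK cells, had 8 genes tested. Of these, 3 were higher in the whole NK group (Tmem176a, Tmem176b and Kit) and 3 in CD8 T cells (Cxcr6, Il7r and Inpp4b). Over all genes tested, 17.0% were higher in NK cells and 16.1% in CD8 T cells. Kit, a receptor tyrosine kinase, lost its call without the Untreated 1, Untreated 2, N297A 1 or GA-aFuc mouse (adjusted p = 0.0606, 0.0731, 0.0602 and 0.0706, against 0.0324 with all).

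The shares of the types and clusters varied among mice. NK cells made up 45.5% and 56.8% of the 2 types in the Untreated mice, 33.2% and 55.1% in the N297A mice, 49.4% in the GA-aFuc mouse and 31.4% in the GITR/Syn GA-aFuc mouse. Exact (Clopper-Pearson) 95% binomial intervals of these shares, which cover counting error only, spanned 25.5% to 37.7% in the last mouse and 49.5% to 64% in the Untreated 2 mouse. The N297A mice differed from the Untreated mice by -6.97 percentage points (two-sided exact permutation test, p = 0.667, where 2 against 2 mice cannot go below 0.333). The mice within each of these groups lay further apart than the group means. The shallow NK cluster 26 made up 17.6% of NK cells in the GA-aFuc mouse and 16.2% in the GITR/Syn GA-aFuc mouse, against 25.5% to 26.1% in the other 4, with intervals that overlap. Within cluster 19 the median UMIs per NK cell were 7461 and 7515 in these 2 mice and 5194 to 5769 in the other 4. Within cluster 20, where the other 4 mice spanned 11110 to 14366, the GA-aFuc mouse stood at 16288 and the GITR/Syn GA-aFuc mouse at 13179. Over all NK cells the 2 mice given an Fc-enhanced antibody lay 3909.2 UMIs above the other 4 (two-sided exact permutation test, p = 0.0667, the smallest that 2 against 4 mice can give), a contrast chosen after the values were seen. The corresponding difference of CD8 T cells was -78.4 UMIs.

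The last comparison asked whether the difference between the types changed with the antibody. Of 8695 genes tested with edgeR, the difference changed between N297A and Untreated mice in 1 gene (0.0115%), Cxcl10, an interferon-induced chemokine that attracts CXCR3-bearing cells. In CD8 T cells its level was 95.2 and 296 CPM in the Untreated mice and 122 and 123 CPM in the N297A mice. In NK cells it was 42.5 and 83.4 CPM in the Untreated mice and 226 and 144 CPM in the N297A mice. The order of the types was thus CD8 above NK in both Untreated mice and the reverse in both N297A mice (log2 difference of the differences -2.07, SE 0.26, adjusted p = 0.0108). This SE borrows spread from other genes and does not measure the spread of these mice alone. The GA-aFuc mouse had the N297A order, with 141 CPM in CD8 T cells and 202 CPM in NK cells, and the GITR/Syn GA-aFuc mouse stood at 82.4 and 93.2 CPM. Within a sum, 1 cell held up to 141 of 255 Cxcl10 UMIs, in the CD8 T cells of the Untreated 2 mouse. With the top cell of each sum left out the difference was -2.14 (adjusted p = 0.000167), and with DESeq2 it did not pass (adjusted p = 0.242).

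A test of any antibody effect on the difference called 3 genes (0.0345%), Cxcl10, Ccl2 and Cxcl2, each at an adjusted p of 0.0293. In the GA-aFuc mouse 1 NK cell held 81 of 107 Ccl2 UMIs and 153 of 168 Cxcl2 UMIs of the NK sum, and this pair of chemokine genes was not called without the top cells (adjusted p = 0.996 for both). At an unadjusted p under 0.05 there were 312 genes for N297A and 333 for any antibody. Both counts are below a share of 0.05 of the 8695 genes tested, the share expected if no difference changed. With 2 residual degrees of freedom, genes that missed the threshold are not shown to have kept their difference. On counts simulated from these sums, a 2-fold change of the difference was found for 40% of the genes given one and a 4-fold change for 83%, with 7 false calls, while a 2-fold difference between the types themselves was found in 96%.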

How the data were processed

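The deposited matrix holds raw UMI counts per barcode for human and mouse genes, made by the authors with Cell Ranger 9.0.0 on GRCh38 and GRCm39, per the file headers and the submitters' processing notes. No doublet caller was run, and the labels do not state whether doublets had been removed. Hashtag counts came from the same deposited matrix, and treatment, cell type and cluster from the deposited cell table, whose making the labels and files do not state. Members and gene lists were chosen with earlier results of these data known.

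Cells with at least 1000 mouse UMIs were assigned to the mouse of their top hashtag (median share of hashtag UMIs 93.8% in CD8 T cells and 92.9% in NK cells). UMIs were summed per mouse and type. Genes were filtered with filterByExpr, scaled by TMM and tested with edgeR 4.0.16 (robust quasi-likelihood test, R 4.3.3) with mouse as a block, since both sums come from the same animal. Over genes, the deviations of the paired sums correlated at 0.064 to 0.178. The design for treatment added a type by treatment term. With 1 mouse in 2 of the groups, the spread comes from the other 2 groups. On simulated counts of 8695 genes, the type test found 96% of 2-fold and 93% of 4-fold differences with 11 false calls. Alternatives included DESeq2 1.42.0, limma 3.58.1, no filter, no block, each mouse left out, and cells thinned to 2000 UMIs. Clusters were left out after the data were seen. Shared 3' ends were compared in GENCODE transcripts.

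Genes were named by rule: the 20 largest differences per direction among called genes whose sums did not overlap and whose higher type had a mean of at least 50 CPM, without antigen receptor, mitochondrial, ribosomal and sex-linked genes, and up to 8 members of each list. Cd160, Fasl, Flt3l, Gzme, Hcst, Lat2, Nkg7, Oasl1, Tbx21, Tgfb1, Trbc2 and Zap70 were named beyond this rule after their values were seen. Some genes are not reported here.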

Additional observations from a re-analysis of the deposited data

Results flagged for a closer look

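In 20 of 222 groups of 6 values examined for the genes named above, 1 mouse lay far from the other 5. Of these 20, 8 were values of the GA-aFuc mouse. Chance gives about 1 in 20 groups only where groups are independent and chosen without regard to their values. Here Gzme, Oasl1, Tbx21 and Trbc2 were named after their values were seen. Cxcl10, Ccl2 and Cxcl2 were named for their calls in the antibody test, and some granzyme genes may share reads. Neither the 20 nor the 8 can therefore be set against chance. The values of the GA-aFuc mouse come first. Its NK cells had 2418.5 CPM of Gzmd against 135 to 678 CPM in the other mice, 971 CPM of Gzme against 42.9 to 226 CPM, 1285.6 CPM of Gzmf against 7.65 to 232 CPM and 672 CPM of Gzmg against 2.45 to 60.3 CPM. Its CD8 T cells had 167 CPM of Gzme against 8.81 to 63.9 CPM and 47.4 CPM of Gzmg against 1.16 to 12 CPM. Its NK cells also had 65.8 CPM of Ccl2 and 103 CPM of Cxcl2, mostly from 1 cell.

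The others were spread over genes and mice. In CD8 T cells of the Untreated 2 mouse, the values apart were 722 CPM of Ccl3, 296 CPM of Cxcl10 and 51 CPM of Oasl1. In CD8 T cells of the N297A 2 mouse they were 176 CPM of Spp1 and 499 CPM of Irf8, and in those of the N297A 1 mouse a low value of 251 CPM of Cxcr6. CD8 T cells of the GITR/Syn GA-aFuc mouse had 92.2 CPM of Csf1 and 93.6 CPM of Adam19, and those of the Untreated 1 mouse 52.3 CPM of Ccl2. In NK cells, the Untreated 1 mouse had 74.5 CPM of Sh2d1b1 and 301 CPM of Tbx21, and the N297A 1 mouse 286 CPM of Trbc2.

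The difference between the types changed with the antibody by the test of the difference itself for Cxcl10 (log2 difference of differences between N297A and Untreated -2.07) and, over any antibody, for Cxcl10, Ccl2 and Cxcl2 (adjusted p = 0.0293 each, edgeR). With DESeq2 Cxcl10 was not called in either test (adjusted p = 0.242 and 0.335). Ccl2 and Cxcl2 were not called without the top cells (adjusted p = 0.996 for both), without the GA-aFuc mouse (adjusted p = 0.993 for both) or with DESeq2 (adjusted p = 1 for both).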

How the results depend on the processing

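No gene called in the comparison of the types was called with the opposite sign in any of 21 alternatives, of which the minimum of 2000 UMIs left out no cell. Of the calls of at least 2-fold that were tested again between 97% and 100% were kept, though thinning left only 283 of these 757 to be tested. Over calls of any size DESeq2 tested all 2872 again and kept 61.2%. Thinning left 1697 of the 2872 to be tested and kept 982, which is 57.9% of those tested. DESeq2 called 916 genes higher in CD8 T cells and 863 higher in NK cells. Thinned to 2000 UMIs per cell, with 4149 genes tested, the counts were 539 and 549, and 177 and 154 at 2-fold or more. With no filter on low counts, and 20251 genes tested, 668 and 647 genes passed 2-fold. Leaving out 1 mouse gave 1172 to 1350 and 1223 to 1364 genes, and 353 to 426 and 362 to 389 at 2-fold or more. Without the mouse as a block, the counts were 1356 and 1426 (372 and 379 at 2-fold or more), and of the named genes Gzme, Gzmg, Tbx21, Ms4a7 and Hspa1a lost their calls while Top2a and Birc5 gained one.

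Of 112 named genes called, 94 kept their call in every alternative that tested them. C1qa changed sign when thinned (log2 difference -0.05, adjusted p = 0.869). Counts of the type by treatment test moved as follows. For N297A against Untreated, DESeq2 called 0 genes (19 at an unadjusted p under 0.05), no filter gave 15, leaving out the top cell of each gene 2, and leaving out 1 mouse 1 to 40, with 40 without the Untreated 1 mouse. For any antibody, no filter gave 47 and leaving out 1 mouse 1 to 82, with 82 without the Untreated 1 mouse and 1 without the GA-aFuc mouse. Without an Untreated or N297A mouse, only 1 group of 2 mice is left to give the spread of this test.

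Leaving out 1 mouse gave differences of -329 to 622 in UMIs per cell (-35.5, -254, -161 and -329 without the Untreated and N297A mice in turn) and of -28.6 to 127 in genes per cell (-28.6 without Untreated 2 and -4.3 without N297A 2). The N297A minus Untreated difference in the NK share ranged from -17.9 to 3.98 points, the latter without N297A 1. The causes of these shifts were not tested. Depth limits the rarest genes, since 1 mouse and type held at least 815544 UMIs, and levels near 1 CPM rest on single UMIs.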
